A study of Rattus norvegicus with 9 samples.

Results

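The immediate early response genes Fos, Fosb, Jun, Junb, Egr1, Egr2, Ier2, Atf3, Nr4a1, and Dusp1 were examined in adipose-derived mesenchymal stem cells (ASCs) of the rat. They were chosen by name, and each was found under its symbol in all 9 samples, so they make up 10 of the 35362 genes counted and 10 of the 14770 left by the filter on low counts of edgeR. RNA had been sequenced from ASCs of subcutaneous fat (SASCs), perirenal fat (PASCs), and epididymal fat (EASCs), with 3 samples in each group. All groups came from male Sprague-Dawley rats aged 6 weeks that had been fasted before the fat was taken, and all cells were grown with fetal bovine serum in high-glucose medium and collected at passage 3, and no treatment that differs between the groups is named. The methods give 6 wells in each group. Whether the 3 samples here stem from different animals is not given in the sources used here, so p-values measure the spread between these samples, which may be technical.

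Immediate early genes are transcribed within minutes of a stimulus such as serum, a growth factor, or stretch, without the need for new protein. Kinase cascades activate factors that already sit at their promoters, above all serum response factor (SRF) with its ternary complex partners and the cAMP response element binding protein (CREB), and the transcripts are then removed quickly through AU-rich elements. Fos and Jun proteins pair to form the transcription factor AP-1, EGR proteins are zinc finger factors, and other products of the same response, among them Dusp1, switch the kinases off again. In fibroblasts and other mesenchymal cells they are the classical mark of the response to serum, and in preadipocytes Fos and Egr2 belong to the first genes induced when adipogenesis is started.

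The total counts of the samples ranged from 17591916 to 30299032, so that 3 counts corresponded to 0.104 to 0.159 CPM (the read count of a gene relative to the TMM-scaled size of its library), a limit that covers counting error only. Each of the 13 markers of mesenchymal stem cells was tested, and their summed level in CPM ranged from 33359 to 35171 across SASCs, from 36402 to 42610 across PASCs, and from 37301 to 40638 across EASCs, while the T cell marker Cd3e was at 0 in every sample. Single markers of this list differed in level between the groups, with mean CPM in SASCs, PASCs, and EASCs of 6880, 218, and 301 for Dcn, of 3234, 93.1, and 74.1 for Lum, and of 1543, 278, and 235 for Pdgfra. Others were higher outside SASCs, with means in the same order of 1046, 1814, and 2951 for Itgb1. Col1a1, the largest part of each sum, was at 10697, 19134, and 20332. Ribosomal RNA held between 10.4% and 15.5% of all counts in SASCs, between 22.4% and 32.9% in PASCs, and between 15.9% and 40.3% in EASCs, and the TMM factors were 1.16 to 1.23 in SASCs and 0.740 to 1.07 in the 6 other samples. Between replicates, chi-square divided by its degrees of freedom was 6.15 to 280.6, above the value near 1 of pure counting noise.

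The 10 genes are spread over 9 chromosomes of the rat genome rn6, on which the deposited table places them. Fos lies at chr6:109300433-109303299 on the plus strand, Jun at chr5:114011184-114014277 on the minus strand, Egr1 at chr18:27657903-27660101 on the plus strand, and Dusp1 at chr10:16970642-16973425 on the plus strand. Egr2 lies at chr20:22454461-22460984 and Atf3 at chr13:109817892-109849632, both on the minus strand, and Nr4a1 at chr7:142900807-142920216 on the plus strand. Junb at chr19:26092972-26094756 and Ier2 at chr19:25774146-25775670 share a chromosome and the minus strand, with a gap of 317302 bases and 19 genes between them. Fosb, at chr1:80214472-80221931 on the minus strand, overlaps the gene LOC103691049 on the other strand, which held at most 10 counts in a sample. The genes are short. Their median span was 2981 bases, from start to end of the gene, against 19304 bases for all genes tested, and 80.0% of them spanned less than 10000 bases, against 32.2% of all genes tested.

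Promoters from RefSeq (assembly GRCr8) were at hand for 7 of the 10 genes, Fosb, Junb, Egr1, Egr2, Ier2, Nr4a1, and Dusp1. The 250 bases before the start are shown for the 4 genes that held a full binding motif of SRF or CREB, since these are the factors through which the response is started. The capitals mark the CArG box, the motif of SRF, in Egr1 and Egr2, and the cAMP response element TGACGTCA in Ier2 and Dusp1.
Egr1: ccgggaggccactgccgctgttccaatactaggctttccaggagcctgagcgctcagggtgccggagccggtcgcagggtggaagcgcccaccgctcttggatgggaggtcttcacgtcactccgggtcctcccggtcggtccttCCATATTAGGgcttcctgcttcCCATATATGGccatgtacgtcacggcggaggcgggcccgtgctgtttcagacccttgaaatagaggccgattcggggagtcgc
Egr2: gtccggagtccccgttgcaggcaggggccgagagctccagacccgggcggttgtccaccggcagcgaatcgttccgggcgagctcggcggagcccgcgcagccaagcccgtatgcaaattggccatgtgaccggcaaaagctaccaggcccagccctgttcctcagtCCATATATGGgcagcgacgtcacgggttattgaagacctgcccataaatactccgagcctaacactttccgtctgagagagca
Ier2: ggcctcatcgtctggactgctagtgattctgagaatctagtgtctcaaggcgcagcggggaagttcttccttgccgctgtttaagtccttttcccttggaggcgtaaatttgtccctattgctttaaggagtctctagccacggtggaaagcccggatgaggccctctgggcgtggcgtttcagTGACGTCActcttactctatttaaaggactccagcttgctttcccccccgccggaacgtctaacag
Dusp1: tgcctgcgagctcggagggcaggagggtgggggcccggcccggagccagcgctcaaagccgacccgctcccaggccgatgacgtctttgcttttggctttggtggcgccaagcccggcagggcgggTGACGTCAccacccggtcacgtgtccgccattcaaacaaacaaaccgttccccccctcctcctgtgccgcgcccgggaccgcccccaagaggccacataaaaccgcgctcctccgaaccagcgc
They lie at chr18:26736828-26737077 on the plus strand for Egr1, at chr20:21054442-21054691 on the minus strand for Egr2, at chr19:40399123-40399372 on the plus strand for Ier2, and at chr10:17184603-17184852 on the plus strand for Dusp1, all on GRCr8.

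Egr1 held 2 CArG boxes, at 105 to 96 and at 83 to 74 bases before the start, and Egr2 held 1, at 83 to 74 bases before the start. Of all 33469 promoters of the same length, searched on both strands, 1.5% held a CArG box. The full cAMP response element stood at 66 to 59 bases before the start of Ier2 and at 124 to 117 bases before that of Dusp1, and 1.59% of all promoters held one. Its core TGACG, which also lies within the full element, was found in 6 of the 7 promoters, in Fosb alone not, and in 18.2% of all promoters. The EGR motif GCGNGGGCG was found in Nr4a1 and in 4.29% of all promoters, and TATAAA, a motif added after the others, in Fosb and Junb and in 12.9%. In Junb it stood at 49 to 44 bases before the start on the strand of the gene. In Fosb it stood at 180 to 175 bases before the start and on the other strand. Neither the AP-1 motif TGANTCA, held by 6.34% of all promoters, nor the ETS motif CCGGAAGT, held by 3.1%, was found in these 7 windows. The 7 promoters had a median GC content of 63.2% and a ratio of observed to expected CpG of 0.802, against 51.2% and 0.383 for all promoters. These are matches of letters and show no binding.

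Against SASCs, 6 of the 10 genes were lower by more than 2-fold in EASCs (Fos, Junb, Egr1, Egr2, Ier2, and Atf3), and the same 6 were lower in PASCs. None was higher. A DEG here is a gene that differed by more than 2-fold at an adjusted p under 0.05 in edgeR's quasi-likelihood test. Of all genes tested, 14.2% were DEGs lower in EASCs and 13.6% DEGs higher, and in PASCs these shares were 14.9% and 12.0%. At any fold change, 9 of the 10 genes passed an adjusted p under 0.05 as lower in EASCs, where 34.3% of all genes did, and 9 of 10 as lower in PASCs, where 34.6% did. The gene that did not pass was Fosb in both comparisons. The samples of 9 genes did not overlap with those of SASCs and lay below them, in EASCs (35.8% of all genes) and in PASCs (36.0% of all genes), and for each of these the two-sided exact permutation test of 3 against 3 samples gave p = 0.1, the smallest it can give. Both comparisons share the 3 samples of SASCs. The median log2 fold change of the 10 genes was -1.13 in EASCs and -1.31 in PASCs, where that of all genes was 0.01 and -0.01. In bulk RNA, fewer cells of a type and less RNA per cell cannot be told apart.

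**Figure D1:**
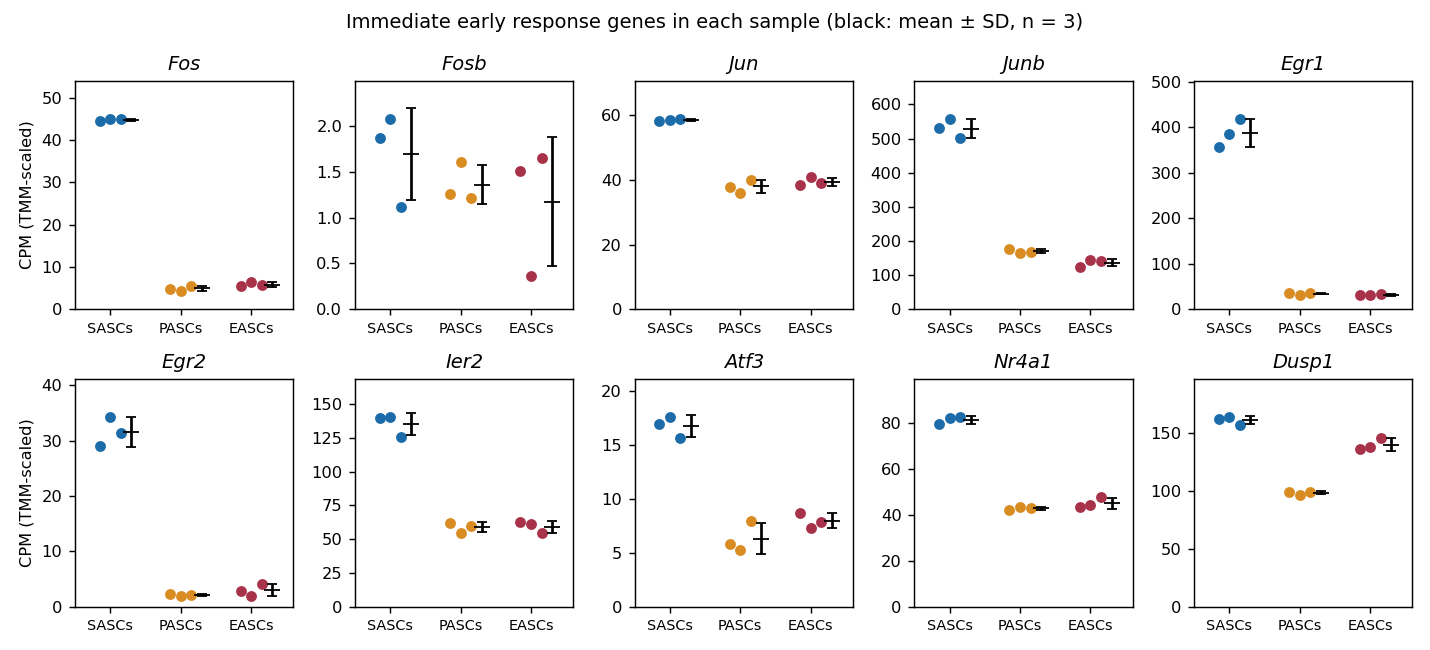
Level of each of the 10 genes in CPM scaled by TMM (vertical axes from 0, a different range for each gene) in the 3 samples of SASCs, PASCs, and EASCs (points), with the mean and SD in black. SASCs lie above both other groups for 9 genes, and for Fosb the groups overlap.

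Fos, the founding partner of Jun in AP-1, was at 44.4, 45.0, and 44.9 CPM in the 3 samples of SASCs, at 4.86, 4.30, and 5.56 CPM in PASCs, and at 5.40, 6.40, and 5.59 CPM in EASCs. The SASCs thus lay far above both other groups, and PASCs and EASCs overlapped. Fos was 7.71-fold lower in EASCs, with a log2 fold change of -2.95 ± 0.101 (SE; adjusted p = 8.67e-20, edgeR), and 9.21-fold lower in PASCs, with a log2 fold change of -3.20 ± 0.104 (SE; adjusted p = 2.54e-20, edgeR). Of all genes tested, 2.82% had a lower value than Fos in EASCs and 2.49% in PASCs.

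Fosb, a close relative of Fos, was scarce. It was at 1.88, 2.08, and 1.12 CPM in SASCs, at 1.26, 1.61, and 1.22 CPM in PASCs, and at 1.51, 0.365, and 1.66 CPM in EASCs, which rests on 9 to 54 counts in a sample. The groups overlapped, and the differences from SASCs were -0.55 ± 0.378 on the log2 scale in EASCs (SE; adjusted p = 0.198, edgeR) and -0.32 ± 0.370 in PASCs (SE; adjusted p = 0.455, edgeR). With each sample left out in turn, the difference in EASCs lay between -0.87 and -0.11, the latter without the second sample of EASCs, which held 9 counts. By total counts in place of TMM, Fosb was at -1.01 in EASCs (adjusted p = 0.0104, edgeR) and -0.65 in PASCs (adjusted p = 0.104, edgeR).

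Junb, the Jun family member with a weaker power to activate AP-1 targets, had the highest mean level per length of the 10 genes in every group. It was at 530.3, 557, and 501 CPM in SASCs, at 175, 166, and 169 CPM in PASCs, and at 125, 144, and 140.4 CPM in EASCs, and no samples of the 3 groups overlapped. Junb was 3.88-fold lower in EASCs, by a log2 fold change of -1.96 ± 0.0610 (SE; adjusted p = 9.64e-21, edgeR), and 3.12-fold lower in PASCs, by -1.64 ± 0.0603 (SE; adjusted p = 4.08e-19, edgeR).

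Jun, the main partner of Fos, differed by less than 2-fold. It was at 58.3, 58.6, and 58.9 CPM in SASCs, at 37.9, 36.0, and 40.1 CPM in PASCs, and at 38.6, 40.9, and 39.1 CPM in EASCs. SASCs lay above all other samples, and PASCs and EASCs overlapped. The log2 fold change was -0.57 ± 0.0640 in EASCs (SE; adjusted p = 1.06e-08, edgeR) and -0.63 ± 0.0643 in PASCs (SE; adjusted p = 1.80e-09, edgeR). By total counts in place of TMM, Jun was at -0.96 in EASCs and -0.95 in PASCs.

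Atf3, a stress-induced factor that can pair with Jun proteins, was at 16.9, 17.6, and 15.6 CPM in SASCs, at 5.78, 5.27, and 7.94 CPM in PASCs, and at 8.71, 7.34, and 7.83 CPM in EASCs. All samples of PASCs and EASCs lay below SASCs. Atf3 was 2.10-fold lower in EASCs (log2 fold change -1.07 ± 0.127, SE; adjusted p = 2.59e-08, edgeR) and 2.68-fold lower in PASCs (log2 fold change -1.42 ± 0.131, SE; adjusted p = 2.10e-10, edgeR). The value in EASCs was near the 2-fold limit, and it was -0.99 when limma was used on log2(CPM + 1), so that Atf3 was then no DEG there.

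Egr1, a zinc finger factor that serum induces through SRF and whose CArG boxes are shown above, had the largest log2 fold change of the 10 genes in EASCs. It was at 357, 385, and 418.5 CPM in SASCs, at 34.8, 32.0, and 34.6 CPM in PASCs, and at 30.1, 30.4, and 33.6 CPM in EASCs. Every sample of SASCs lay about an order of magnitude above the 6 others. Egr1 was 12.3-fold lower in EASCs, by a log2 fold change of -3.63 ± 0.0682 (SE; adjusted p = 1.45e-25, edgeR), and 11.5-fold lower in PASCs, by -3.52 ± 0.0678 (SE; adjusted p = 3.15e-25, edgeR). Its first rank in EASCs was not held in every fit. Over the leave-one-out fits the lowest value was -3.68 for Egr1 and -3.69 for Egr2.

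Egr2, which also carries a CArG box and takes part in adipogenesis and myelination, differed in the same direction. It was at 29.1, 34.3, and 31.3 CPM in SASCs, at 2.37, 2.02, and 2.07 CPM in PASCs, and at 2.89, 1.99, and 4.12 CPM in EASCs. PASCs and EASCs overlapped, and both lay below SASCs. Egr2 was 10.6-fold lower in EASCs (log2 fold change -3.40 ± 0.151, SE; adjusted p = 2.72e-17, edgeR) and 14.6-fold lower in PASCs (log2 fold change -3.87 ± 0.158, SE; adjusted p = 4.80e-18, edgeR). Of all genes tested, 1.87% lay below Egr1 and 2.12% below Egr2 in EASCs, and 2.04% lay below Egr1 in PASCs.

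Nr4a1, an orphan nuclear receptor, was at 79.4, 82.0, and 82.6 CPM in SASCs, at 42.2, 43.3, and 42.9 CPM in PASCs, and at 43.2, 44.2, and 47.7 CPM in EASCs. The SASCs lay above the 6 other samples, by just under 2-fold. Its log2 fold change was -0.85 ± 0.0605 in EASCs (SE; adjusted p = 9.74e-13, edgeR) and -0.93 ± 0.0607 in PASCs (SE; adjusted p = 1.83e-13, edgeR).

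Ier2, a small nuclear protein with a cAMP response element in its promoter, was at 139.8, 140.6, and 126 CPM in SASCs, at 61.7, 54.7, and 59.9 CPM in PASCs, and at 62.6, 61.1, and 54.3 CPM in EASCs. Both other groups lay well below SASCs and overlapped with each other. Ier2 was 2.28-fold lower in EASCs (log2 fold change -1.19 ± 0.0655, SE; adjusted p = 3.65e-15, edgeR) and 2.31-fold lower in PASCs (log2 fold change -1.21 ± 0.0656, SE; adjusted p = 3.01e-15, edgeR).

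Dusp1, a phosphatase that removes the activating phosphates of p38, JNK, and ERK and so ends the response, had EASCs and PASCs at different levels. It was at 162, 164, and 157 CPM in SASCs, at 99.3, 96.7, and 99.3 CPM in PASCs, and at 136, 138, and 146 CPM in EASCs, so that EASCs lay between the 2 other groups without overlap. Its log2 fold change was -0.20 ± 0.0523 in EASCs (SE; adjusted p = 0.00115, edgeR) and -0.71 ± 0.0530 in PASCs (SE; adjusted p = 2.83e-12, edgeR), both under 2-fold. Scaled by total counts in place of TMM, Dusp1 was at -0.60 in EASCs and -1.03 in PASCs, the latter past 2-fold.

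**Figure D2:**
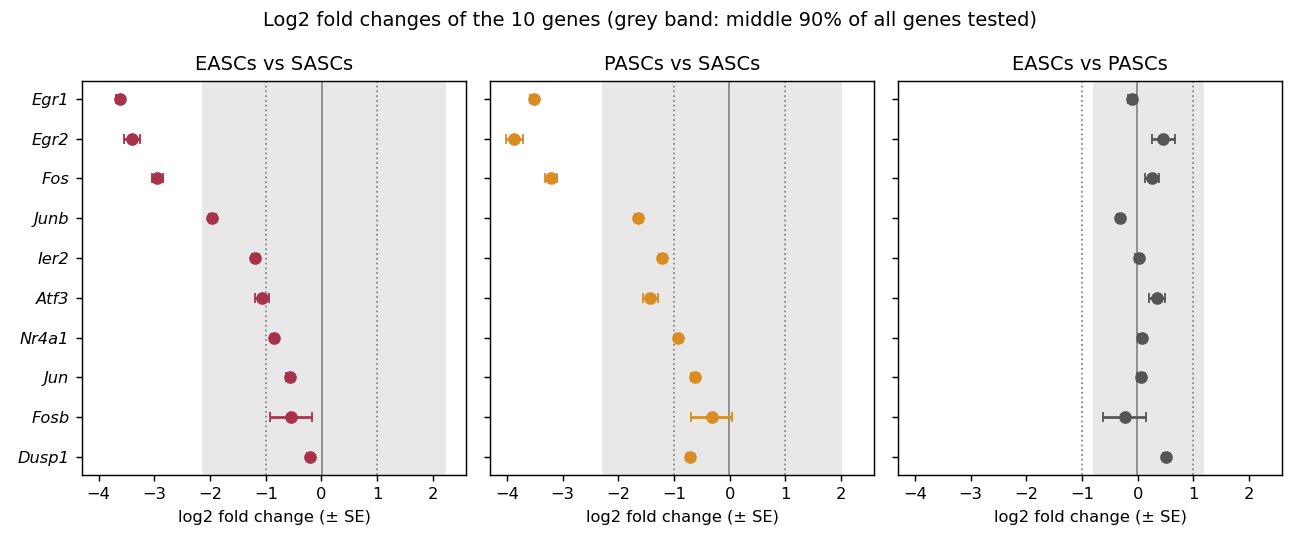
Log2 fold change with SE (horizontal axis) of each gene (vertical axis) in EASCs and PASCs against SASCs and in EASCs against PASCs, with the middle 90% of all genes tested as a grey band and 2-fold as dotted lines. Egr1, Egr2, and Fos lie outside the band in both comparisons with SASCs, and all 10 genes lie inside it between EASCs and PASCs.

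Between EASCs and PASCs, no more of the 10 genes were called than the share of all genes. None of the 10 genes was a DEG between them, where 2.20% of all genes were DEGs lower in EASCs and 5.19% DEGs higher. At any fold change, Junb passed the test as lower in EASCs (14.5% of all genes) and Dusp1 as higher in EASCs (16.1% of all genes), and 1 of 10 in each direction is no more than these shares. Junb differed by -0.32 ± 0.0601 on the log2 scale (SE; adjusted p = 1.41e-04, edgeR) and Dusp1 by 0.51 ± 0.0531 (SE; adjusted p = 1.50e-08, edgeR), with 3 of 3 samples of EASCs below or above all of PASCs. Groups without overlap were found with EASCs lower for 20.1% of all genes and with EASCs higher for 21.1%. The other 8 genes did not pass, with log2 fold changes from -0.23 (Fosb) to 0.46 (Egr2; adjusted p = 0.0884, edgeR), and the median of the 10 genes was 0.07, against -0.01 for all genes. That median was 0.13 without the second sample of EASCs, and Fosb was at 0.20 without it. Without TMM, by total counts alone, neither Junb (adjusted p = 0.101, edgeR) nor Dusp1 (adjusted p = 0.0517, edgeR) passed.

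The differences from SASCs moved with the scaling, and other features of the samples differed between the groups. The scaling by TMM differed between SASCs and the other groups, as given above, and with total counts in its place the median log2 fold change of all genes was -0.39 in EASCs and -0.33 in PASCs. The median of the 10 genes was then -1.53 in EASCs and -1.63 in PASCs, so that they remained below that of all genes, and the shares of genes that were DEGs lower and higher became 23.2% and 9.13% in EASCs and 21.5% and 8.54% in PASCs. With the genes of ribosomal RNA removed before scaling, the medians were -1.13 and -1.31, and 6 genes were DEGs in each comparison. Markers of other cell types also differed between the groups. The summed level of 8 markers of smooth muscle and pericytes ranged from 190 to 198 CPM in SASCs, from 2919 to 3212 in PASCs, and from 6440 to 6798 in EASCs. The pericyte marker Rgs5 held 0 to 4 counts in PASCs, with mean levels of 1.25 CPM in SASCs, 0.0759 in PASCs, and 0.169 in EASCs. For 10 mesothelial markers the ranges were 21.6 to 23.3, 227 to 229, and 192 to 206 CPM, with Muc16 at or under the floor in each group, and for 12 leukocyte markers 96.4 to 105, 152 to 156, and 262 to 272 CPM, with Cd3e and Cd79a at or under the floor. Within the leukocyte list, the mean CPM in SASCs, PASCs, and EASCs was 10.4, 58.1, and 85.6 for Lyz2, while it was lower in PASCs than in SASCs for Cd163 (27.8, 7.52, and 30.8) and Mrc1 (17.7, 14.3, and 35.8). For 7 adipocyte markers they were 112 to 119, 23.4 to 24.8, and 11.8 to 13.4 CPM, for 8 endothelial markers 55.1 to 56.4, 13.9 to 17.1, and 37.9 to 41.1 CPM, and for 6 markers of Schwann cells and neural crest 52.4 to 55.5, 97.3 to 107, and 256 to 287 CPM, with Sox10 at or under the floor. Single markers went against these sums, with means in the same order of 2.55, 8.30, and 8.08 CPM for the endothelial Tek, 9.20, 1.13, and 9.77 for Cdh5, and 29.8, 6.94, and 1.48 for S100b of the Schwann cell list, in which Ncam1 held most of the sum in PASCs (92.9) and EASCs (263). The part of these cell types in the result was not tested.

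Per length of the gene model in the deposited table (RPKM, CPM divided by kilobases), the order of the 10 genes changed between the groups. In SASCs, Junb was highest at 297 ± 15.8 RPKM (SD, n = 3), followed by Egr1 at 253 ± 20.0, Ier2 at 88.8, Dusp1 at 83.6, Fos at 28.2, Jun at 18.9, Nr4a1 at 12.9, Egr2 at 10.4, Atf3 at 8.84, and Fosb at 0.425 RPKM. Ier2 and Dusp1 overlapped in their ranges there. In PASCs, Egr1 stood behind Junb (95.2 RPKM), Dusp1 (51.1), and Ier2 (38.5) at 22.1 RPKM, and Fos, at 3.09 RPKM, stood behind Jun, Nr4a1, and Atf3, with a range that overlapped that of Atf3 (3.35 RPKM). In EASCs the order was the same as in PASCs, Junb at 76.4 and Dusp1 at 72.6 RPKM overlapped in their ranges, and Atf3 at 4.21 and Fos at 3.65 RPKM did so too. Egr2, at 0.707 RPKM in PASCs and 0.985 RPKM in EASCs, and Fosb, at 0.342 and 0.295 RPKM, were the lowest in both groups. The Egr1 model of 1527 bases is shorter than its span of 2199 bases, and its RPKM depends on that length.

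Within the protein families to which the genes belong, the makeup of the transcripts differed for the Fos, Jun, and NR4A families. That of the EGR family was nearly the same in the groups, and no share was tested. Shares within a family do not depend on the scaling of the libraries. Fos made up 41.7% ± 1.32 (SD, n = 3) of the RPKM of the 4 Fos family genes in SASCs, 9.32% ± 1.62 in PASCs, and 12.0% ± 1.18 in EASCs. Fosl2, a Fos family member without the strong activating end of Fos, made up 24.5% ± 0.929 in SASCs, 52.1% ± 2.86 in PASCs, and 60.1% ± 3.31 in EASCs, and its own log2 fold change was 0.14 in EASCs (adjusted p = 0.215, edgeR) and 0.08 in PASCs (adjusted p = 0.509, edgeR). Fosl1 made up 33.2%, 37.6%, and 26.9% of the family in the same order, and Fosb 0.630%, 1.02%, and 0.971%.

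Of the 3 Jun family genes, Junb made up 82.0% ± 0.570 (SD, n = 3) in SASCs, 54.4% ± 2.32 in PASCs, and 54.6% ± 2.43 in EASCs. Jund, the member that is expressed without stimulation, made up 12.8%, 38.6%, and 36.3%, and Jun 5.24%, 7.02%, and 9.16%. The summed level of the family was 362 RPKM in SASCs, 175 in PASCs, and 140.1 in EASCs. Of the 4 EGR genes, Egr1 made up 95.3% ± 0.335 in SASCs, 96.0% ± 0.336 in PASCs, and 94.7% ± 1.34 in EASCs, with a summed level of 266, 23.0, and 21.7 RPKM, and Egr4 was at 0 to 2 counts in every sample. In the NR4A family, Nr4a1 made up 62.5% ± 1.27 in SASCs, 41.4% ± 1.96 in PASCs, and 56.0% ± 3.10 in EASCs, while Nr4a3 made up 29.1%, 45.8%, and 30.8%.

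**Figure D3:**
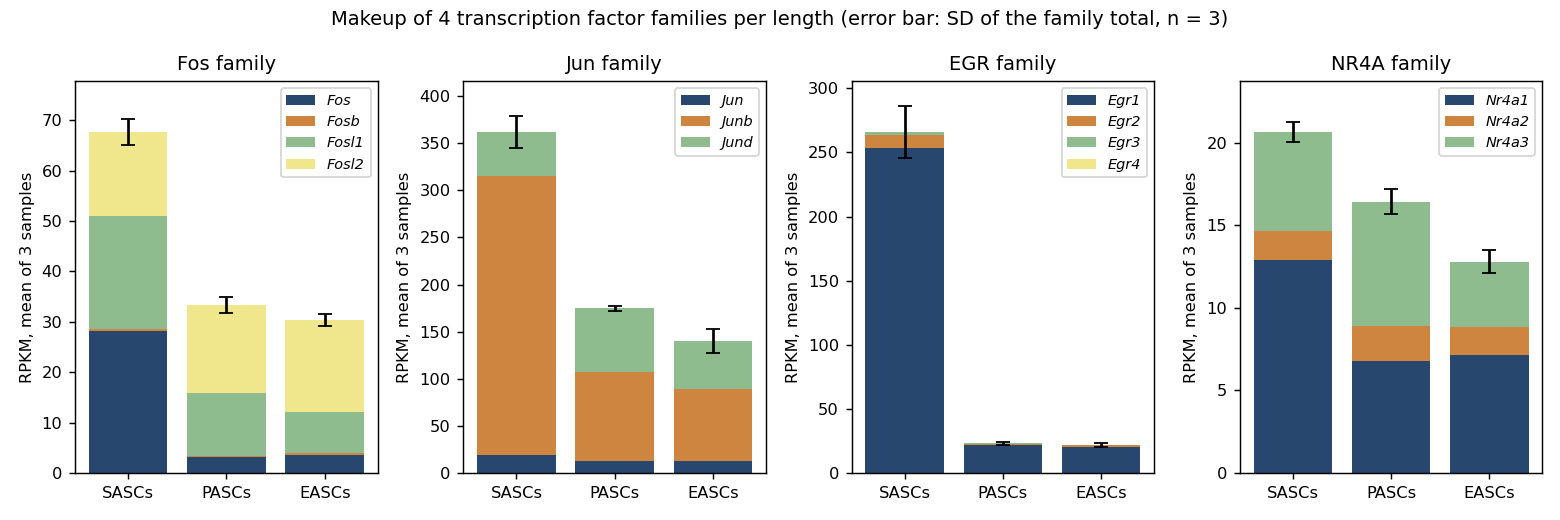
Mean RPKM of 3 samples (vertical axes from 0), stacked by gene, for the Fos, Jun, EGR, and NR4A families in SASCs, PASCs, and EASCs, with the SD of the family total as error bar. The summed level of the Fos family was 67.6 RPKM in SASCs, 33.3 in PASCs, and 30.3 in EASCs, and Fosl2 was its largest part in PASCs and EASCs.

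Other genes of the response were examined as lists written for this purpose, and some genes stand in more than one of them. Their counts of DEGs stand against shares of all genes of 14.2% lower and 13.6% higher in EASCs and of 14.9% and 12.0% in PASCs. Between EASCs and PASCs these shares were 2.20% lower and 5.19% higher in EASCs. No difference of a list from these shares was tested. Of 13 other AP-1 family members tested, 4 were DEGs lower and 1 higher in EASCs, and 4 and 1 in PASCs, with medians of -0.46 and -0.41 that turned to 0.14 and 0.08 when no filter on low counts was used. Both were -0.19 among genes with at least 1 CPM in every sample compared. Batf3, a factor known from dendritic cells, was among the DEGs lower in EASCs (log2 fold change -3.51) and in PASCs (-3.06), as were Fosl1 in EASCs (-1.46) and Maf in PASCs (-1.23). Between EASCs and PASCs none of the 13 was a DEG.

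Of 55 other immediate early genes tested, 11 were DEGs lower and 10 higher in EASCs, and 13 lower and 7 higher in PASCs, with medians of -0.22 and -0.32. Egr3, the third zinc finger gene of the EGR family, was lower in EASCs (log2 fold change -3.56) and in PASCs (-3.38), as was Zfp36, whose product binds AU-rich elements and speeds the decay of transcripts such as that of Fos (-2.65 and -2.82). Gem, a small GTPase, was lower in EASCs (-3.87) and in PASCs (-2.28), and it was also lower in EASCs than in PASCs (-1.59). Ctgf, a matrix-associated growth factor induced by serum and stretch, was higher in EASCs (3.27) and in PASCs (2.73). Between EASCs and PASCs, 1 gene of this list was a DEG lower and 2 were higher, Hes1 (1.17) and Ptgs2 (1.17).

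Of 20 upstream transcription factors tested, none was a DEG lower, and 2 were higher in EASCs and 1 in PASCs, with medians of -0.17 and -0.02, the first of which was -0.11 without the third sample of SASCs. At any fold change, 10 of them passed the test as lower and 7 as higher in EASCs, where 34.3% and 35.5% of all genes did, and 7 and 7 in PASCs, where 34.6% did in each direction. Srf, which binds the CArG box, was higher in EASCs (log2 fold change 1.07) and in PASCs (1.09). Its coactivator Myocd, a factor of smooth muscle, was higher in EASCs (2.00) and also higher there than in PASCs (2.07), where it was the single DEG of this list. Creb1 was at -0.41 in EASCs (adjusted p = 2.00e-06, edgeR) and -0.26 in PASCs (adjusted p = 5.80e-04, edgeR).

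Of 27 MAP kinases and their kinases tested, 2 were DEGs lower and 1 higher in EASCs, 2 lower and 2 higher in PASCs, and none between EASCs and PASCs. The medians were 0.00 in EASCs and -0.01 in PASCs. Mapkapk3 (-1.94 and -1.44), a kinase downstream of p38, and Mapk12 (-1.47 and -1.84), a p38 isoform, were lower in EASCs and PASCs, Map2k1, the kinase of ERK, was higher in EASCs (1.02), and Map2k6, a kinase of p38 at under 1 CPM, was higher in PASCs (1.62).

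Of 9 other MAP kinase phosphatases tested, 2 were DEGs lower and 3 higher in each comparison with SASCs, with medians of 0.45 in EASCs and -0.12 in PASCs, the first of which was -0.18 among genes with at least 1 CPM in every sample and 0.26 without the first sample of SASCs. With no filter on low counts the medians were 0.23 and 0.04. Dusp10 was lower in EASCs (-2.40) and PASCs (-1.69). Dusp8 was higher in both (3.13 and 2.70), from 0.385 CPM in SASCs, and so was Dusp2 (1.59 and 1.54), from 0.740 CPM. Dusp4 was higher in EASCs (2.84) and higher there than in PASCs (1.84). Its mean level was 2.67 CPM in SASCs, 5.34 in PASCs, and 19.2 in EASCs. Of 15 factors that bind AU-rich elements or degrade mRNA, 4 were DEGs lower in EASCs and 2 in PASCs, and none was higher, with medians of -0.29 and -0.19. The latter was -0.07 without the first sample of PASCs and -0.12 without the third sample of SASCs. They included Zfp36l1 (-2.39 and -2.38) beside Zfp36, and in EASCs Zfp36l2 (-1.36), and none of the 15 was a DEG between EASCs and PASCs.

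Of 18 genes of heat shock and cell stress tested, 2 were DEGs lower and 8 higher in EASCs, and 1 lower and 4 higher in PASCs, with medians of 0.71 and 0.60. Chac1 (2.40 and 2.59) and Trib3 (2.27 and 2.37), both targets of the ATF4 branch of the stress response, were higher in EASCs and PASCs. Hmox1, the heme oxygenase induced by oxidative stress, was lower in EASCs (-1.91) and in PASCs (-2.32). Hsp90aa1 was higher in EASCs than in SASCs (2.33) and PASCs (2.67), but it was at 1.93 ± 1.91 CPM (SD, n = 3) there, and it was no DEG between EASCs and PASCs without the second sample of EASCs. It was the single DEG of the list between those groups.

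Scaled by total counts in place of TMM, the medians of these lists against SASCs were lower. In EASCs they became -0.85 for the AP-1 family, -0.62 for the other immediate early genes, -0.57 for the upstream factors, -0.39 for the MAP kinases, 0.065 for the phosphatases, -0.69 for the decay factors, and 0.32 for the stress genes, against -0.39 for all genes. In PASCs they became -0.73, -0.64, -0.35, -0.33, -0.46, -0.51, and 0.27 in the same order, against -0.33 for all genes.

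**Figure D4:**
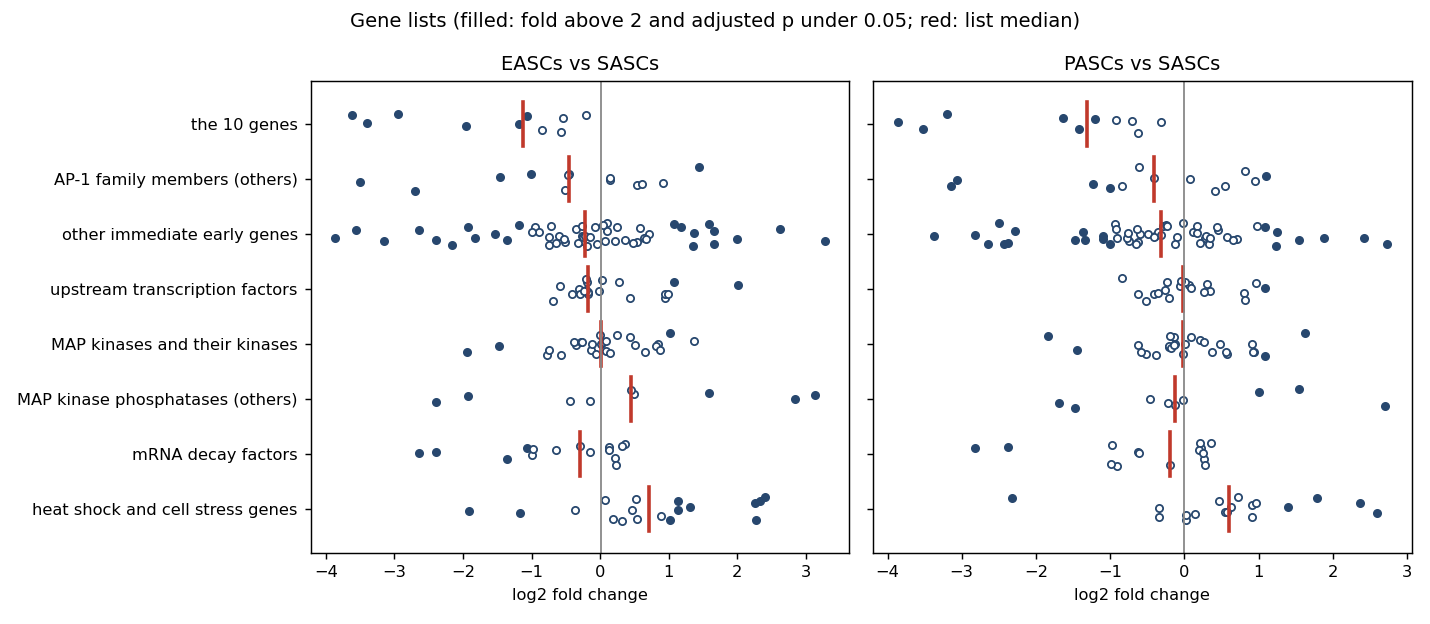
Log2 fold change (horizontal axis) of each tested gene of the lists (rows) in EASCs and PASCs against SASCs, with DEGs filled and the median of each list in red. The 10 genes have medians of -1.13 and -1.31, while the other lists hold DEGs on one or both sides of 0.

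The spread between replicates was below that of other genes of a like level for 4 of the 10 genes and above it for 6. On the log2(CPM + 0.5) scale the SD within groups was 0.0390 for Dusp1, 0.0473 for Nr4a1, 0.0510 for Jun, and 0.119 for Fos, where the median SD of genes of a like level was 0.0664, 0.0784, 0.0834, and 0.133 in the same order. It was 0.0813 for Junb, 0.0911 for Egr1, 0.0971 for Ier2, 0.187 for Atf3, 0.273 for Egr2, and 0.480 for Fosb, against 0.0654, 0.0730, 0.0725, 0.142, 0.169, and 0.262. In Fosb the spread within groups (0.480) was as large as the range of the group means (0.471), and for the other 9 genes the range of the group means was from 0.620 to 3.60. The genes did not deviate together in most samples. In the second sample of SASCs, 9 of 10 lay above the group mean, by a median of 0.04, and in the second sample of PASCs 8 of 10 lay below it, by a median of -0.07, while the other 7 samples had 4 to 7 genes above the mean.

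**Figure D5:**
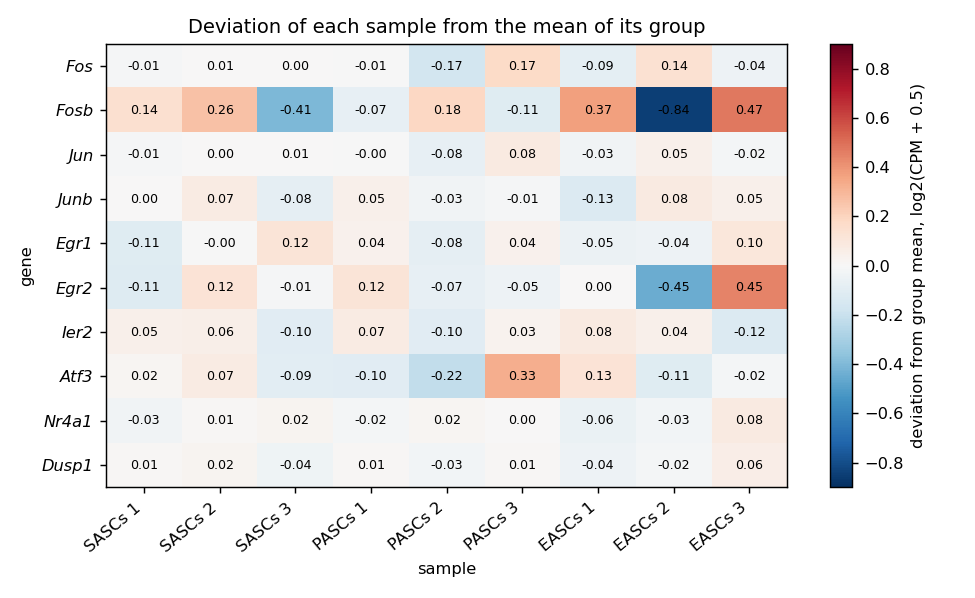
Deviation of each sample (horizontal axis) from the mean of its group for each gene (vertical axis), in log2(CPM + 0.5). The largest is that of Fosb in the second sample of EASCs, at -0.84.

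Over the 9 samples, the pattern of a gene was compared with that of others by the root mean square difference of log2(CPM + 0.5), each gene centred on its mean. Among the 10 genes, Jun and Nr4a1 were the closest pair (0.149), Egr1 and Egr2 were at 0.276, Fos and Egr1 at 0.327, and Fosb and Egr1 the farthest (1.57). Among 8557 other genes with a mean of at least 10 CPM, those closest to Fos were Galnt16 (0.151), Gas6 (0.157), and Zfp36 (0.171), those closest to Egr1 were Igf1 (0.140), Robo2 (0.159), and Cdo1 (0.182), and those closest to Jun were Ddx5 (0.0408), Lmtk2 (0.0410), and Cul4b (0.0472). Igf1 was at 313 CPM in SASCs, 28.9 in PASCs, and 27.8 in EASCs, and Gas6 at 593, 57.2, and 66.7 CPM. The 9 samples form 3 groups, so that these patterns rest on 3 group means.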

How the data were processed

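RNA of 9 samples, 3 each of SASCs, PASCs, and EASCs, was sequenced. The authors trimmed the reads, aligned them with TopHat to rn6, a build of the rat genome, and deposited a table of read counts per gene. These deposited counts are whole numbers and are not normalized. The submitters' processing notes name TopHat2 and rn5 instead of rn6, and the positions in the deposited table fit rn6. The counting tool and its use of strand are not given in the sources used here.

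Groups and sample numbers were taken from the labels. Counts were normalized by TMM and filtered with filterByExpr in edgeR 4.0.16 (R 4.3.3), leaving 14770 genes. The 9 samples were fitted together, with the 3 groups as the model and no block, and the 3 comparisons were tested by the quasi-likelihood test in place of DEGseq, which the methods name, with Benjamini-Hochberg adjustment over all genes tested. The SE is the log2 fold change divided by the square root of F. DEGs differed by more than 2-fold at an adjusted p under 0.05, the limits given in the methods. The common biological coefficient of variation was 0.0685. The edgeR fit was tested on simulated data for EASCs against SASCs, and the other steps were not. Exact permutation tests used scipy 1.17.1.

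The 10 genes, the lists, and the tests were chosen with earlier results of these data known. All 10 genes are named, with at most 3 DEGs of each list and comparison that had the largest change, further family members where a family is explained, and the 3 genes closest in pattern to Fos, Egr1, and Jun. Upstream factors described for their role were added to these. Genes that the rule selects but the text does not name are not reported here. Positions are those of the deposited table, except for promoters, which were taken from RefSeq on GRCr8. The promoters of Fos, Jun, and Atf3 were not analysed here.

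Alternatives were DESeq2 1.42.0, limma 3.58.1 with voom or on log2(CPM + 1) and log2(CPM + 0.1), upper quartile scaling, total counts, removal of ribosomal RNA genes, other filters and thresholds, only the 2 groups compared, the sample number as a block, and leaving out each sample in turn.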

Additional observations from a re-analysis of the deposited data

Results flagged for a closer look

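Among the 10 genes, 2 differed between EASCs and PASCs in their change against SASCs, by a test of the difference itself. Junb was lower in EASCs than in PASCs by a log2 fold change of -0.32 (adjusted p = 1.41e-04, edgeR), in 3 of 3 samples, and over the leave-one-out fits the value lay between -0.36 and -0.26. Dusp1 stood higher in EASCs, by a log2 fold change of 0.51 (adjusted p = 1.50e-08, edgeR), in 3 of 3 samples, with values of 0.48 to 0.53 when each sample was left out in turn. Both are under 2-fold, both passed an adjusted p under 0.05, at any fold change, in 19 of 20 other fits, and neither passed with total counts, at -0.39 for Junb and 0.43 for Dusp1. At any fold change 14.5% of all genes passed as lower in EASCs and 16.1% as higher, and groups without overlap were found for 20.1% and 21.1% of all genes, so that 1 of the 10 genes in each direction is no more than these shares. The cause was not tested.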

How the results depend on the processing

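With 23 alternatives, 5 to 9 of the 10 genes were DEGs lower in EASCs than in SASCs, 6 to 9 were lower in PASCs, and none was higher in either. When each sample was left out in turn, 6 were lower in each comparison. The alternatives that changed these counts were limma on log2(CPM + 1), which left out Atf3 in EASCs (-0.99), total counts, a fold limit of 1.5, and a threshold on the adjusted p alone. With total counts, Nr4a1 was also a DEG in EASCs (-1.25) and PASCs (-1.25), Fosb in EASCs (-1.01), and Dusp1 in PASCs (-1.03). Between EASCs and PASCs, no gene was a DEG in any alternative but the threshold on the adjusted p alone, which called 1 lower (Junb) and 1 higher (Dusp1). The directions that turned, all between EASCs and PASCs and none past a threshold, were those of Fosb without the second sample of EASCs (0.20), of Ier2 with total counts (-0.049), without the second sample of PASCs (-0.036), and without the first (-0.025) or the second (-0.0066) sample of EASCs, and, with total counts, of Jun (-0.013) and Nr4a1 (-0.0025). With each sample left out in turn, the value ranged from -0.55 to 0.20 for Fosb and from -0.036 to 0.080 for Ier2. An adjusted p under 0.05 between EASCs and PASCs was also reached by Atf3 in 3 and by Egr2 in 2 of 20 other fits. Over the alternatives, the median of the 10 genes lay between -1.53 and -1.08 in EASCs and between -1.63 and -1.23 in PASCs.

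Samples with the same number did not deviate together from their group means (correlations across genes of -0.0252 to 0.0590, and of -0.100 to 0.0674 for other pairs), so the numbers were not taken to pair them. With the replicate number as a block, 6 genes were lower in each comparison with SASCs and no call of the 10 genes changed, with values for Fos of -2.95 in EASCs and -3.20 in PASCs, and the DEGs of all genes were 2080 lower and 1981 higher in EASCs.

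Of all genes, 2103 were DEGs lower and 2002 higher in EASCs, and 2200 lower and 1779 higher in PASCs. Total counts gave 3426 lower and 1349 higher in EASCs and 3169 lower and 1262 higher in PASCs. A filter of 1 CPM in every sample compared gave 1113 and 1131 in EASCs, 1159 and 1056 in PASCs, and 145 and 342 between EASCs and PASCs, where 325 and 766 were counted before. With limma on log2(CPM + 1), 1282 were lower in EASCs and 1342 in PASCs, and 153 and 353 were lower and higher between them. A fold limit of 1.5 gave 3268 and 3146, 3339 and 3066, and 704 and 1241 for the 3 comparisons. Low counts limit Fosb, at 9 to 54 counts, the most.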
